A study of Mus musculus with 29 samples.

Results

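The sites described here were positions bound by the transcription factor IRF8 in 2 mouse cell types and by the transcription factor CEBPA in 1 of them. A site was a merged IRF8 peak called in both libraries of type 1 classical dendritic cells (cDC1) that overlapped, by at least 1 base, a merged IRF8 peak called in both monocyte (Mo) libraries and a merged CEBPA peak called in both Mo libraries. The rule gave 1026 sites of 32474 reproducible IRF8 or CEBPA sites in all. They were 5.32% of the 19295 IRF8 sites of cDC1, 24.4% of the 4201 IRF8 sites of Mo and 6.76% of the 15178 CEBPA sites of Mo. The IRF8 and CEBPA calls chose the sites, so they are described below without a test, whereas acetylation of histone H3 at lysine 27 (H3K27ac) was not used to choose them and was compared between groups.

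The data were chromatin immunoprecipitation sequencing (ChIP-seq) libraries of primary cells of C57BL/6 mice, with 2 libraries in each of 7 H3K27ac groups and 4 factor groups. Wild-type (WT) H3K27ac groups were bone marrow LSK cells (lineage-negative, Sca1-positive, CD117-positive stem and progenitor cells), bone marrow lymphoid-primed multipotent progenitors (LMPP, sorted as CD135-positive and CD150-negative cells within the LSK gate) and spleen cDC1 (sorted as XCR1-positive, CD172a-negative, MHC class II-high, CD11c-high cells). Bone marrow of mice without the Irf8 +56 kb enhancer (d56kb) was the source of a second LMPP group, of GMP (granulocyte-monocyte progenitors, Sca-1-negative, CD16/32-positive, CD115-negative) and of MDP (monocyte-dendritic cell progenitors, Sca-1-negative, CD115-positive). Another LMPP group came from IRF8-deficient (IRF8KO) mice. No WT library of GMP or MDP was analysed here, so GMP and MDP values all come from cells that carry the enhancer deletion. For IRF8 and CEBPA, WT cDC1 were enriched on magnetic columns as Thy1.2-negative, B220-negative, CD49b-negative, CD8a-positive spleen cells, and WT Mo as CD117-negative, CD135-negative, Ly6G-negative, CD115-positive bone marrow cells. These columns were a different preparation from the cell sorting used for H3K27ac, and H3K27ac of Mo was not analysed here. The d56kb label was checked on the data: H3K27ac regions covered 642 to 2313 bases of a 4 kb window at the deleted enhancer in the 6 WT libraries and 0 bases in the 6 d56kb libraries. The window was also at 0 in both IRF8KO libraries.

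IRF8 is an interferon regulatory factor that binds DNA weakly alone and usually pairs with an ETS factor such as PU.1 or with another IRF. It is needed for cDC1 and for the monocyte lineage and holds back the neutrophil lineage. CEBPA is a leucine zipper factor that drives myeloid progenitors toward granulocytes and monocytes. H3K27ac marks active promoters and enhancers.

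At 10 of the 35 RefSeq promoters that the sites overlapped, the sequence held an IRF motif, and at 4 it held both an IRF and a C/EBP motif. A promoter here is the 300 bases from 250 before to 50 after a listed start of a protein-coding gene, in build GRCm38.p6, and the 35 promoters belonged to 33 genes and 32 sites. Searched on both strands were the IRF-ETS composite (GGAA and GAAA with any 2 bases between), the IRF repeat (GAAA and GAAA with any 2 bases between), the C/EBP motif TTGCNNAA and the PU.1 motif GAGGAAGT, of which the first and the second can overlap. The composite stood in 6 of the 35 promoters (17.1%, against 2.53% of all 21237 promoters), the IRF repeat in 5 (14.3% against 3.34%), the C/EBP motif in 7 (20% against 10.2%) and the PU.1 motif in 4 (11.4% against 3.13%). Promoters at related sites held these motifs too: the 99 promoters at shared IRF8 sites without CEBPA held the composite in 16.2%, the IRF repeat in 20.2%, the C/EBP motif in 8.08% and the PU.1 motif in 17.2%, and the 85 at cDC1 IRF8 sites with CEBPA held them in 7.06%, 7.06%, 31.8% and 18.8%. Each of the 11 IRF motif matches lay inside the merged IRF8 peak, as did 6 of the 7 C/EBP matches. The sequences below are the 4 promoters with both kinds of motif, Irf2 and Cd68 chosen by the naming rule and Klrk1 and Tnfsf13b added after their sequences were seen. Gbp7 is also shown as a promoter where H3K27ac differed between IRF8KO and WT LMPP and that held an IRF repeat, and it too was added after its values were seen. Each is printed 5′ to 3′ on the strand of the gene, with matches to the IRF-ETS composite, the IRF repeat and the C/EBP motif in capitals.
Irf2, chr8:46739495-46739794, plus strand: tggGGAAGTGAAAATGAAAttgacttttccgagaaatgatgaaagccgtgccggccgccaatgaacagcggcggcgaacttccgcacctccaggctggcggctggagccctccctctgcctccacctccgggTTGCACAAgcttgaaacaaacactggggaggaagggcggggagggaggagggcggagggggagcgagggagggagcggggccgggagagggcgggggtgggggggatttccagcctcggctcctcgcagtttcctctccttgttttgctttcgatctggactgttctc
Cd68, chr11:69666121-69666420, minus strand: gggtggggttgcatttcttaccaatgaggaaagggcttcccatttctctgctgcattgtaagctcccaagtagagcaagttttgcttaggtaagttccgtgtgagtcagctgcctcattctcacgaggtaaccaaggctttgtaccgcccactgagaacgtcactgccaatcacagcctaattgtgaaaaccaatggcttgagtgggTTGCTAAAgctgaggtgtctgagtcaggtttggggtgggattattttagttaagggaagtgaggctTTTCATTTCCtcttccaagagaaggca
Klrk1, chr6:129623815-129624114, minus strand: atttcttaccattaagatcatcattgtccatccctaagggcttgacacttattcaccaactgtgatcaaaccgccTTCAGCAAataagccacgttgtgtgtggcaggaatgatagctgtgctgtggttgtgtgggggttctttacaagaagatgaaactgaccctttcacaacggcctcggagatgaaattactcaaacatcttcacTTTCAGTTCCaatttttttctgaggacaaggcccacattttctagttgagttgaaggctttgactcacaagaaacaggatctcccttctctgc
Tnfsf13b, chr8:10006383-10006682, plus strand: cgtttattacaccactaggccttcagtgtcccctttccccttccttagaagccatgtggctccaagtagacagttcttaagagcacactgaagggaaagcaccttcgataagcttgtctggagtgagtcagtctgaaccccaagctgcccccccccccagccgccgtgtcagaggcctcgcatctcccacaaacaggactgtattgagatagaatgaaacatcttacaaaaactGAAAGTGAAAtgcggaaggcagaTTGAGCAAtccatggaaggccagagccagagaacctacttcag
Gbp7, chr3:142530086-142530385, plus strand: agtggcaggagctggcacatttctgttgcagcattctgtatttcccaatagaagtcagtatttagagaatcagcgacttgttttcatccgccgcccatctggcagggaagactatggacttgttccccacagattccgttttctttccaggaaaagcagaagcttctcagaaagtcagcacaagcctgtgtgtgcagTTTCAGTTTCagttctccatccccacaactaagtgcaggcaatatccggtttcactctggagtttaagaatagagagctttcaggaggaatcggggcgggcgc
In Irf2, which encodes an interferon regulatory factor, the composite and the repeat overlapped and began 247 and 241 bases before the start, and the C/EBP match began 118 bases before it. In Cd68, which encodes a lysosomal glycoprotein of macrophages, the C/EBP match began 43 bases before the start and the composite 23 bases after it. Klrk1, which encodes the receptor NKG2D, held the composite 43 and the C/EBP match 175 bases before its start. Tnfsf13b, which encodes the B cell survival cytokine BAFF, held the IRF repeat 16 bases before and the C/EBP match 7 bases after its start. In H3K27ac the Klrk1 site had 1678 and 1520 of 2000 bases covered in cDC1 and 0 in the other 12 libraries, and the Tnfsf13b site had 0 in all 14. A match describes letters in the window and is not evidence of binding at that place.

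The IRF8 and CEBPA peaks of a site did not in general lie at the same point. That they lay close together follows from the rule, which required them to overlap. Where a site held several peaks of a library, the smallest distance between centres was taken. Between the centres of the IRF8 peaks in the first cDC1 and first Mo library the median distance was 27.5 bases, near the 25 bases between the cDC1 libraries themselves. From the cDC1 IRF8 centre to the Mo CEBPA centre the median was 58 bases in the first libraries and 56 in the second, and 44.7% and 45.5% of sites had the centres within 50 bases. CEBPA centres of the Mo libraries lay a median of 18 bases apart. The shift between factors was therefore larger than the distance between libraries of 1 factor in each of these pairs. The sites just inside the rule were 2 sites that shared under 100 bases with the Mo IRF8 peak and 46 that shared under 100 bases with the CEBPA peak. Just outside it were 273 shared IRF8 sites with CEBPA called in 1 Mo library, 31 shared IRF8 sites with a CEBPA peak under 100 bases away, and 378 cDC1 IRF8 sites with CEBPA where IRF8 was called in 1 Mo library.

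**Figure D1:**
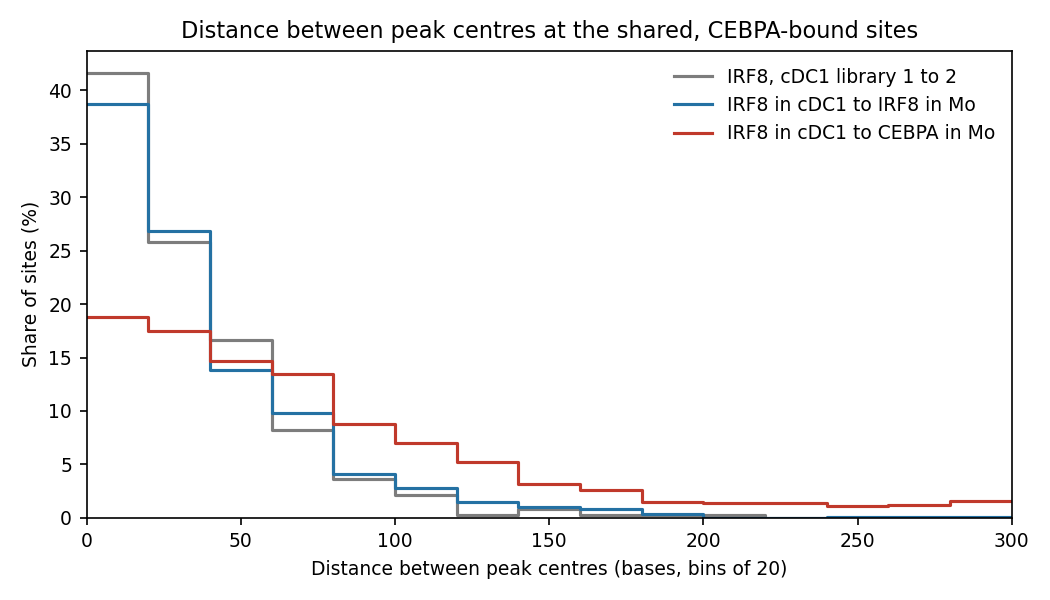
Share of the shared, CEBPA-bound sites (y axis, percent) by distance between peak centres (x axis, bases, in bins of 20 up to 300) for IRF8 in the cDC1 libraries (grey), IRF8 in cDC1 and Mo (blue) and IRF8 in cDC1 and CEBPA in Mo (red), the last pairs taken from first libraries. The red curve is lower at the left and extends further, with a median of 58 bases against 25 and 27.5 for the grey and blue curves. The rule required the peaks of a site to overlap, which limits all these distances.

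CEBPA itself was almost undetected at these sites in cDC1. The CEBPA lists of cDC1 held 166 and 72 peaks, against 19705 and 17827 in Mo, from 33.3 and 7.87 M tags in cDC1 and 17.0 and 22.6 M in Mo. In each cDC1 library 0.01% of tags fell in CEBPA peaks, against 5.15% and 3.92% in the Mo libraries. The part of this low yield in the lack of peaks was not tested. Only 1 of the 1026 sites had a cDC1 CEBPA peak, called in both libraries, inside Ube2a (a ubiquitin-conjugating enzyme) at chrX:36878663-36878949, and no H3K27ac library had a region there. Among the 3466 IRF8 sites shared by cDC1 and Mo, 29.6% had CEBPA in Mo, whereas among the 15829 cDC1 sites not shared with Mo 8.65% did. This share follows from the calls that set the rule and is given as a description. The lists had different yields: 5.42% and 6.00% of cDC1 tags and 2.19% and 2.21% of Mo tags fell in IRF8 peaks, at 12.3 to 16.1 M tags a library.

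Most of the sites lay away from gene starts. A listed start of a protein-coding gene was within 1 kb of 55 sites (5.36%, 95% Wilson interval 4.14 to 6.91%), 478 sites (46.6%) lay inside a gene span and 493 (48.1%) between genes. The table of starts covered 79.9% of protein-coding genes and none on chromosome 18, so the first share is a lower limit. Gene starts held 6.60% of the 2440 shared IRF8 sites without CEBPA, 8.47% of the 1369 cDC1 IRF8 sites with CEBPA and 11.7% of the 12444 sites of CEBPA alone. Lower shares were seen at the 14460 sites of cDC1 IRF8 alone (4.77%), the 404 of Mo IRF8 alone (4.95%) and the 331 of Mo IRF8 with CEBPA (3.32%). Away from chromosome 18, the median distance to a listed start was 28.0 kb. With each site given to the nearest protein-coding gene within 100 kb, the sites fell to 844 genes, of which 750 had 1 site, 84 had 2, 9 had 3 and Irf2 had 4, and 77 sites had no gene in reach. The genes with 3 were Dglucy, Dock10, Kctd12, Lpp, Prr5l, Reep3, Rftn1, Tnfaip3 and Ubac2. Another of the sites lay within 10 kb of 40 sites (3.90%), so the windows used below seldom overlapped.

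Several genes of phagocytes and of microbial sensing had a site. Of all 21896 protein-coding genes 844 (3.85%) had a site, whereas in the list of lysosome and antigen processing genes 7 of 16 had one, among them Ctsb, Ctsc, Ctsz, Lgmn, Tfeb and Psap. In the list of Fc receptor, integrin and phagocyte oxidase genes 5 of 16 had one (Itgam, Ncf4, Cyba, Clec4a2 and Sirpa), and among pattern recognition genes 6 of 20 (Tlr2, Tlr4, Nod2, Nlrp3, Casp1 and Tnfaip3). Monocyte genes counted 6 of 24 (Ccr2, Cx3cr1, Itgam, Cd68, Fcgr1 and Mpeg1), lineage transcription factors 6 of 26 (Irf2, Irf5, Runx1, Bcl6, Zeb2 and Etv6) and cDC1 genes 4 of 20 (Xcr1, Batf3, Wdfy4 and Ppt1). A single gene had a site in the B cell list (Ms4a1, of 12), the housekeeping list (Ywhaz, of 14), the pan-dendritic list (Kmo, of 18) and the neutrophil list (Gfi1, of 20). No gene had one in the lists for stem cells (20 genes), MHC class I (13), T and NK cells (13), erythroid cells (12) or interferon response (18). With lists of 12 to 20 genes, 0 or 1 gene is near what the share of all genes would give. A cDC1 IRF8 site of any kind stood at 34.9% of all genes, at 12 of the 16 genes of the lysosome list, 81.3% of the Fc receptor list, 85.0% of the pattern recognition and cDC1 lists, 87.5% of the monocyte list and 92.3% of the lineage factors, and at 70.0% of the stem cell and 61.1% of the interferon response list. Shares of cDC1 IRF8 sites above that of all genes were thus common to these lists. The counts carry no test, and genes with long spans or wide neighbourhoods have more room for a site.

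H3K27ac at the sites was most frequent in d56kb MDP and WT cDC1 and least frequent in LMPP. A site counted as acetylated in a library when a called H3K27ac region reached within 1 kb of its midpoint, and in a group when this held in both libraries. Among WT groups the share was 53.1% for cDC1, 40.4% for LSK and 20% for LMPP. Among d56kb groups it was 57.5% for MDP, 43.3% for GMP and 30.7% for LMPP, and for IRF8KO LMPP it was 12.3%. Over all 32474 IRF8 or CEBPA sites the share was 35.9% in cDC1, 30.2% in LSK and 16.8% in WT LMPP. There d56kb MDP had 35.1%, d56kb GMP 33.7%, d56kb LMPP 24.6% and IRF8KO LMPP 11.6%. The groups thus stood in a similar order over all sites. The library shares were 48.0% and 43.6% in LSK, 27.6% and 25.9% in WT LMPP, 68.2% and 54.3% in cDC1, 37.1% and 36.4% in d56kb LMPP, 50% and 49.6% in GMP, 61.2% and 71.7% in MDP, and 18.1% and 19.5% in IRF8KO LMPP. The 3 kinds of LMPP did not overlap, with IRF8KO lowest and d56kb highest, while the ranges of cDC1 and MDP overlapped. Depth moved in part with this order: the 2 IRF8KO libraries had the fewest tags (1.26 and 1.47 M) and the least covered sequence (17.7 and 18.4 Mb), WT LMPP covered 22.2 and 25 Mb and d56kb LMPP 38.1 and 35 Mb. The part of depth in these shares was not tested. The first cDC1 library had 52.3% of its tags in regions and the second 16.4%.

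The sites were acetylated more often than shared IRF8 sites without CEBPA in each of the 14 libraries. The difference in percentage points was 6.93 and 6.40 in LSK, 3.85 and 2.69 in WT LMPP, 12.3 and 10.8 in cDC1, and 4.76 and 5.33 in d56kb LMPP. It was 16.9 and 17.3 in GMP, 21.1 and 23.2 in MDP, and 0.67 and 2.28 in IRF8KO LMPP. The mean was 9.61 ± 7.41 points (SD, n = 14 libraries). No p is given, since each library scores the same 2 sets of sites and any fixed difference between the sets recurs in all of them. The largest differences were thus in both libraries of MDP and GMP, and whether a group's difference exceeded another's was not tested. Both shares come from the same library, and the part of its depth in the size of each difference was not tested. Restricted to sites over 2.5 kb from a listed start the mean was 11.5 points. At the 1369 cDC1 IRF8 sites that had CEBPA but no reproducible Mo IRF8, the group shares were 45.7% in LSK, 26.6% in WT LMPP, 59.5% in cDC1, 37.9% in d56kb LMPP, 51.9% in GMP, 55.7% in MDP and 19.5% in IRF8KO LMPP. Those shares were above the shares of the shared, CEBPA-bound sites in all groups except MDP, a comparison for which no test was made.

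**Figure D2:**
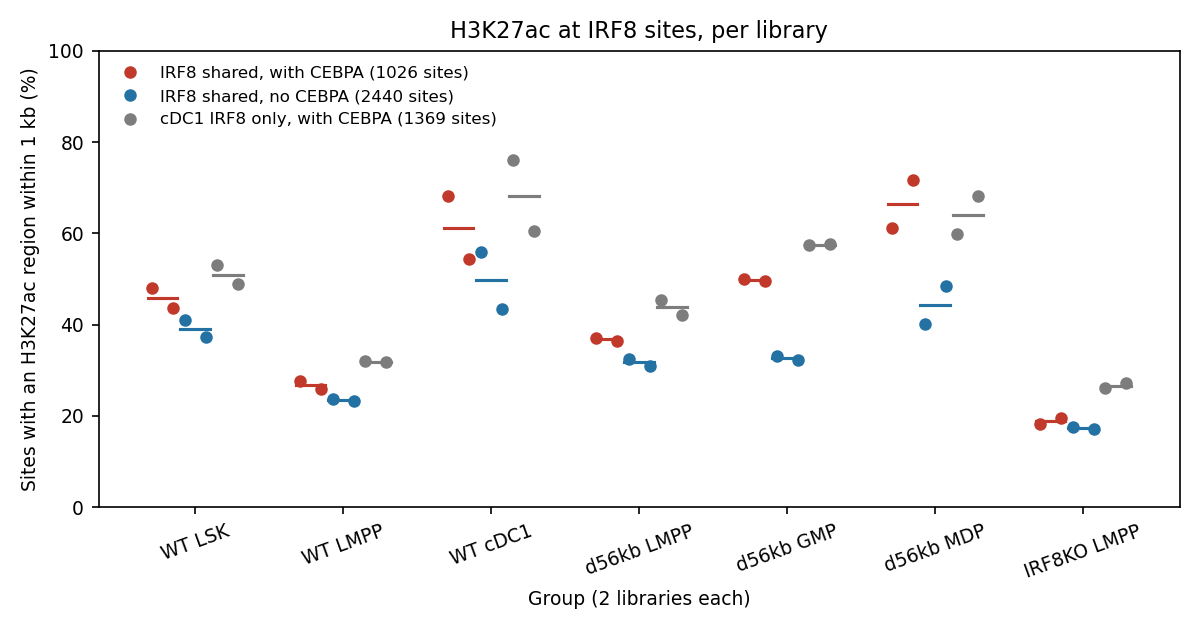
Percentage of sites with an H3K27ac region within 1 kb (y axis) in each of 14 libraries (points, 2 for each group on the x axis; lines are means of 2) at the 1026 shared, CEBPA-bound sites (red), 2440 shared sites without CEBPA (blue) and 1369 cDC1 IRF8 sites with CEBPA (grey). The red points lie above the blue points of the same library by 0.67 to 23.2 points, most in MDP and least in IRF8KO LMPP.

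Acetylated sites fell mainly into those marked both in LSK or LMPP and in GMP, MDP or cDC1, and those marked in GMP, MDP or cDC1 without LSK or LMPP. The first kind held 410 sites (40.0%, against 31.8% of shared sites without CEBPA and 46.0% of cDC1 IRF8 sites with CEBPA). The other kind held 342 (33.3%), against 23.3% of shared sites without CEBPA and 31.3% of cDC1 IRF8 sites with CEBPA. In the reverse pattern were 19 (1.85%, against 4.22% and 2.05%). Among the 545 sites acetylated in cDC1, 406 were also acetylated in d56kb MDP. They were 39.6% of all 1026 sites, against 25.9% of shared sites without CEBPA and 41.1% of cDC1 IRF8 sites with CEBPA. Set against shared sites without CEBPA, sites acetylated in cDC1 alone numbered 106 (10.3% against 12.1%), in MDP alone 54 (5.26% against 3.03%) and in GMP alone 10 (0.975% against 0.656%). In cDC1 and MDP alone there were 72 (7.02% against 3.57%), in GMP and MDP alone 41 (4.00% against 1.52%), and in those 3 groups alone 51 (4.97% against 1.76%). At cDC1 IRF8 sites with CEBPA these last shares were 3.94%, 4.09% and 4.53%. There the shares in cDC1 alone, MDP alone and GMP alone were 12.9%, 2.41% and 2.26%. All 7 groups shared 94 sites (9.16%, against 8.48% of shared sites without CEBPA and 14.8% of cDC1 IRF8 sites with CEBPA). A further 55 (5.36%, against 4.14% and 5.26%) were acetylated in every group except IRF8KO LMPP. In no group was the mark present in both libraries at 255 sites (24.9%, against 40.7% of shared sites without CEBPA and 20.6% of cDC1 IRF8 sites with CEBPA). No region was found in any of the 14 libraries at 119 sites (11.6%, against 25.7% and 8.18%). At the 55 sites by a gene start the share ran from 50.9% in IRF8KO LMPP to 89.1% in MDP, and at the 493 sites between genes from 8.52% to 55.6% in the same groups.

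Level at a site was taken as the bases, of the 2000 within 1 kb of its midpoint, that a library's H3K27ac regions covered, and the log2 of these bases plus 500, scaled to the total covered length, was fitted over all sites with limma. Of the 1026 sites 828 passed the filter of covered bases in at least 2 libraries, and Benjamini-Hochberg adjusted p-values were taken over all 20243 sites fitted. A site was called where its adjusted p was under 0.05 in this scaled fit. Scaling alone shifts windows that are fully covered in every library, so the number called both with and without it is given for each comparison, and the sites named below as higher or lower were called both ways. No fold is given against a group with both libraries at 0. A value of 501 bases, frequent below, is the narrowest width of a called region, so it shows a call more than a graded level. Several of the 6 comparisons share libraries: WT LMPP enters 4 of them, so counts in these are set side by side and not compared.

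Among the lineage transcription factors, whose 9 sites all passed the filter, Irf5, Runx1, Bcl6, Etv6 and Irf2 had sites that gained H3K27ac in cDC1 over LMPP. The site 1.87 kb upstream of the Irf5 gene span, an activator of inflammatory cytokine genes, had 1729 and 1654 bases covered in LSK, 2000 and 2000 in cDC1, 2000 and 2000 in MDP, and 0 in both libraries of WT LMPP, d56kb LMPP, GMP and IRF8KO LMPP. It was thus full in MDP and cDC1, high in LSK and empty in the other groups, without overlap. Its level was higher in cDC1 than in LMPP (limma adjusted p = 8.92e-06), lower in WT LMPP than in LSK (adjusted p = 0.000806) and higher in MDP than in GMP (adjusted p = 4.02e-05). At the site inside Runx1, a core factor of blood stem cells and later lineages, cDC1 had 1650 and 927 bases and MDP 1542 and 1765, and the other 10 libraries had 0. It rose in cDC1 over LMPP (limma adjusted p = 2.64e-06) and in MDP over GMP (adjusted p = 6.86e-06). Bcl6, a transcriptional repressor, had a site 23.4 kb upstream of its start with 2000 and 2000 bases in cDC1, 0 and 501 in MDP and 0 in the other 10 libraries (cDC1 over LMPP, limma adjusted p = 0.000107). Only cDC1 was marked in both libraries there.

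Irf2 showed how the sites of 1 gene differed. Its start (the promoter printed above) was covered in every library, from 546 bases in the first IRF8KO library to 2000 in 7 libraries. The site 112 kb downstream of the start was covered by 1107 bases or more in every library and by the whole 2000 in all LSK, WT LMPP, cDC1, d56kb LMPP and MDP libraries. The site 38.5 kb downstream of the start had 1142 and 1145 bases in LSK, 1610 and 628 in cDC1, 976 and 909 in GMP, 1177 and 1371 in MDP, 501 and 0 in d56kb LMPP, and 0 in both libraries of WT LMPP and of IRF8KO LMPP. It was thus marked in both libraries of all groups except the 3 kinds of LMPP. It was higher in cDC1 than in WT LMPP (limma adjusted p = 0.00338). The fourth site, 38.9 kb beyond the gene span, had 1711 and 1448 bases in cDC1, 1704 and 1410 in MDP, 501 and 0 in LSK and 0 in the other groups. There cDC1 was higher than LMPP (limma adjusted p = 0.000240) and MDP higher than GMP (adjusted p = 0.000790). Etv6, an ETS family repressor, had a site inside the gene with 2000 bases in each cDC1, GMP and MDP library, 1942 and 1963 in LSK and 0 in both WT LMPP libraries, and rose in cDC1 over LMPP (adjusted p = 0.00336, limma). Zeb2, a zinc finger repressor of the monocyte and dendritic lineages, had 2000 bases in each GMP and MDP library and 2000 and 1998 in LSK, with 804 and 501 in cDC1, and passed no comparison.

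The lysosome and antigen processing genes had 7 sites, all of which passed the filter, and 5 of them were higher in cDC1 than in LMPP (Ctsb, Ctsc, Ctsz, Psap and Tfeb). In that comparison 30.6% of all tested sites and 37.4% of the tested shared, CEBPA-bound sites were called higher, and the count carries no test. The site 25.6 kb upstream of the Ctsc span, which encodes cathepsin C, had 1592 and 1464 bases in cDC1, 501 and 964 in MDP and 0 in the other 10 libraries. The groups did not overlap, and cDC1 exceeded LMPP (limma adjusted p = 3.04e-06) as MDP exceeded GMP (adjusted p = 0.000288, and 0.119 with a window of 2.5 kb to each side). Inside Ctsb, which encodes cathepsin B, cDC1 had 1967 and 1443 bases, MDP 1970 and 2000, GMP 501 and 627, LSK 501 and 0, and each LMPP library 0. This is a graded pattern, empty in LMPP, low in GMP and high in cDC1 and MDP, with cDC1 above LMPP (limma adjusted p = 0.000111). Its rise from GMP to MDP (adjusted p = 0.00727) missed the threshold without the first GMP library (adjusted p = 0.0521). Tfeb, which encodes a master regulator of lysosomal genes, had 2000 bases in each cDC1 and MDP library, 1032 and 918 in GMP, 1661 and 501 in LSK and 0 in both WT LMPP libraries (cDC1 over LMPP, limma adjusted p = 0.00110). The calls at Ctsz and Psap in cDC1 over LMPP (limma adjusted p = 0.0253 and 0.0115) were lost on leaving out either cDC1 library, and that at Ctsz also without the second WT LMPP library (highest adjusted p 0.141 and 0.0709).

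Pattern recognition genes had 9 sites, 8 of which passed the filter, and they followed no common pattern. The site 14.6 kb upstream of Nlrp3, an inflammasome sensor, had 2000 and 1979 bases in cDC1, 2000 and 2000 in MDP, 1771 and 690 in LSK, 501 and 0 in d56kb LMPP and 0 in WT LMPP, GMP and IRF8KO LMPP. Like Irf5 it was high in cDC1, MDP and LSK, and it rose in cDC1 over LMPP (limma adjusted p = 0.000713) and in MDP over GMP (adjusted p = 0.00220). Tnfaip3, which encodes the inhibitor A20 of NF-kappa-B signalling, had 3 sites. The one inside the gene had 2000 and 2000 bases in cDC1, 1649 and 1843 in GMP, 1879 and 1988 in MDP, 0 and 501 in LSK and 0 in the LMPP groups, and the one 38.4 kb upstream had 1700 and 1541 in GMP, 1730 and 1903 in MDP, 0 and 501 in cDC1 and 0 in the other groups. Both were higher in GMP than in d56kb LMPP (limma adjusted p = 0.000582 and 0.000980), and the intragenic one also in cDC1 over LMPP (adjusted p = 0.000161). Tlr2, a receptor of bacterial lipoproteins, had 837 and 1372 bases in WT LMPP and 501 and 0 in cDC1, and its fall in cDC1 (limma adjusted p = 0.0173) was lost without the second WT LMPP or the second cDC1 library (highest adjusted p 0.123). At Nod2 every library except the first IRF8KO library was covered, by 501 to 2000 bases, and 1 of the 2 Tlr4 sites had no region in any library.

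Monocyte genes had 7 sites, all of which passed the filter. At Cx3cr1, the fractalkine receptor of monocytes, the site inside the gene had 1190 and 1625 bases in GMP, 1037 and 1057 in MDP and 0 in the other 10 libraries (GMP over d56kb LMPP, limma adjusted p = 1.38e-05). The start of Mpeg1, which encodes the pore-forming protein perforin-2 of phagocytes, had 2000 bases in each cDC1 and MDP library, 2000 and 1633 in GMP, 501 and 0 in LSK and 0 in the LMPP groups. It rose in GMP over d56kb LMPP (limma adjusted p = 0.000438) and in cDC1 over WT LMPP (adjusted p = 0.000136). The Cd68 promoter printed above had 2000 and 2000 bases in cDC1, 1837 and 1648 in GMP, 1791 and 1830 in MDP, 1833 and 1339 in LSK, 501 and 0 in WT LMPP, 943 and 0 in d56kb LMPP and 0 in both IRF8KO libraries, and passed no comparison. Ccr2, the receptor that guides monocytes out of the marrow, had a site 33.5 kb upstream of its span that was covered in every library by 1163 to 2000 bases. Fcgr1, the high-affinity IgG receptor, had 501 and 10 bases in cDC1 and none elsewhere. In the phagocyte oxidase, Cyba (the p22phox subunit) had 1861 and 1718 bases in LSK, 0 in both WT LMPP libraries, 782 and 1640 in d56kb LMPP and 2000 and 2000 in cDC1. Its level was higher in d56kb LMPP than in WT LMPP (limma adjusted p = 0.0134), but not with a window of 2.5 kb to each side (adjusted p = 0.840). The start of Clec4a2, a C-type lectin receptor, had 1762 and 1669 bases in GMP, 1345 and 1665 in MDP and 632 in the first LSK library only (GMP over d56kb LMPP, limma adjusted p = 0.000320).

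cDC1 genes had 5 sites, all of which passed the filter, and 4 of them were higher in cDC1 than in LMPP. The share over all tested sites was 30.6%, and 37.4% over the tested shared, CEBPA-bound sites. At the site 1.36 kb upstream of Xcr1, the chemokine receptor that defines cDC1, cDC1 had 1577 and 1613 bases, MDP 1297 and 1436, GMP 639 and 0, and the other 8 libraries 0 (limma adjusted p = 0.000916 for cDC1 over LMPP). The site inside Wdfy4, a gene needed for cross-presentation, had 1503 and 1135 bases in cDC1, 0 and 501 in MDP and none elsewhere (adjusted p = 0.000271, limma), whereas the site at its start was covered in every library by 1043 to 1995 bases. The site 12.8 kb downstream of the start of Batf3, a factor that sustains Irf8 in cDC1, had 2000 and 2000 bases in cDC1, 1253 and 927 in LSK, 1831 and 791 in MDP, 0 and 632 in GMP, 501 in each d56kb LMPP and IRF8KO LMPP library, and 0 in both WT LMPP libraries (adjusted p = 0.00274, limma). The call at Ppt1, a lysosomal thioesterase (limma adjusted p = 0.00985), was lost without the second cDC1 library (adjusted p = 0.0658). Kmo, an enzyme of tryptophan breakdown in the pan-dendritic list, had 1026 and 501 bases in cDC1, 501 and 1333 in MDP and 0 elsewhere. Over all 45 sites of listed genes the share acetylated in both libraries was 80.0% in MDP, 73.3% in cDC1, 57.8% in GMP, 51.1% in LSK, 33.3% in d56kb LMPP, 22.2% in WT LMPP and 13.3% in IRF8KO LMPP. Markers of the sorted cells ran as the labels say for cDC1, LSK and GMP, but did not settle the LMPP labels. The loci of 6 cDC1 markers held 137 to 175 kb of H3K27ac in cDC1 and at most 22.7 kb in any other library. Those of 6 stem cell markers held 118 to 144 kb in LSK, 75.1 and 85.5 kb in d56kb LMPP and 43.2 and 40.9 kb in WT LMPP. They held at most 30.6 kb in IRF8KO LMPP, which overlapped d56kb GMP (30.4 and 32.2 kb). Those of 6 neutrophil markers held 54.6 to 56.8 kb in GMP, 37.5 to 41.0 kb in MDP and 0.50 to 5.75 kb in cDC1. They also held 20.98 and 20.66 kb in LSK, above WT LMPP (at most 8.04 kb). Monocyte markers held 20.6 to 24.4 kb in MDP and 15.8 to 17.4 kb in GMP, and their part in the GMP and MDP results was not tested.

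**Figure D3:**
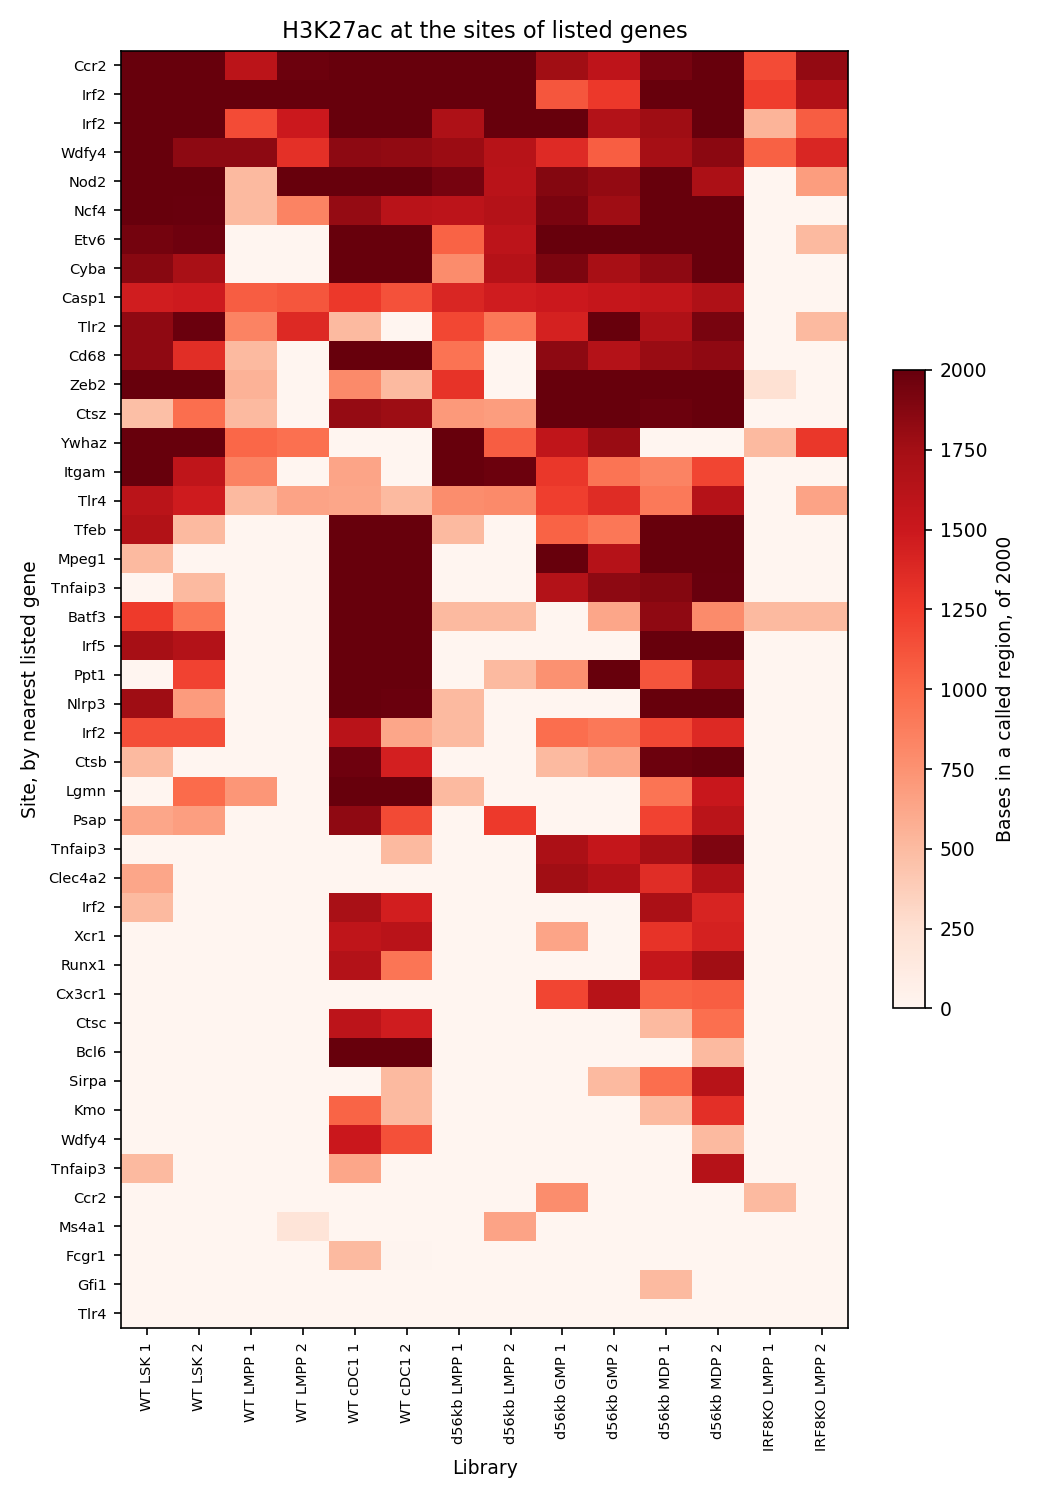
Bases covered by H3K27ac regions within 1 kb of the midpoint (colour, 0 to 2000) at 44 of the 45 sites of listed genes (rows, by gene, ordered by total) in each of 14 libraries (columns, 2 for each group). The sites of Ctsc, Runx1 and Xcr1 are dark in cDC1 and MDP, those of Cx3cr1 and Clec4a2 in GMP and MDP, and the top 4 rows are covered in every library.

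Between WT cDC1 and WT LMPP, more of the sites gained than lost H3K27ac. With the filter 310 sites were higher and 62 lower in cDC1 (over all sites tested, 30.6% higher and 8.85% lower). Without scaling the counts were 378 and 21 (all sites, 36.7% and 3.91%), the median difference over all sites moving from 0.11 to 0.50 on the log2 scale, and 309 and 21 sites were called under both. Over all 1026 sites without a filter 300 (29.2%) were higher, against 18.5% of all 32474 sites, and 55 (5.36%) lower, against 4.83%. Of all sites in each set, 30.2% of the shared, CEBPA-bound sites, 22.8% of shared sites without CEBPA and 31.6% of cDC1 IRF8 sites with CEBPA were called higher. The share was 27.5% of sites of cDC1 IRF8 alone. It was 7.02% of the 12444 sites of CEBPA alone, which are a large part of all 32474. Of tested sites only, 37.4% of the shared, CEBPA-bound sites and 51.4% of sites of cDC1 IRF8 alone were called higher. Among the sites with the largest rise were those at Tnfaip3 and at the start of Slamf6, a receptor of the SLAM family, with 2000 and 2000 bases in cDC1 and 0 in both WT LMPP libraries (limma adjusted p = 0.000161 and 0.000112). The level cannot exceed 2000 bases, so other sites, those at Irf5 and Bcl6 among them, tied with these for the largest rise. Among those with the largest fall, the start of Mlkl, the executor of necroptosis, had 2000 and 1735 bases in WT LMPP and 0 in both cDC1 libraries (adjusted p = 5.33e-07, limma), and was covered by 1023 or more in every other library. Zfp831, a zinc finger gene, had 1842 and 2000 in WT LMPP and 0 in cDC1 and MDP (adjusted p = 2.15e-05, limma), and Gpr160, an orphan receptor gene, had 824 and 1557 in WT LMPP, 0 in cDC1 and 2000 in each GMP and MDP library (adjusted p = 0.000602, limma). cDC1 came from spleen and LMPP from marrow, so organ and cell type cannot be told apart here.

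Between WT LMPP and LSK the fit called 31 sites higher and 42 lower in LMPP (all sites tested, 3.1% higher and 4.77% lower), and without scaling 0 higher and 110 lower (all sites, 0.0198% and 12.3%). Without a filter 23 of 1026 (2.24%) were higher, against 1.31% of all sites, and 31 (3.02%) lower, against 2.33%. No site was called higher under both, and 42 were lower under both. Without scaling the median difference over all sites fitted moved from 0 to -0.22 on the log2 scale. Without the first LSK library 21 sites were called, and without the first WT LMPP library 36. At Bmp2k, a kinase gene, the site had 2000 and 2000 bases in LSK and 0 in both WT LMPP libraries (limma adjusted p = 0.000304), and at Resf1, a gene that represses retroelements, 1783 and 1881 in LSK and 0 in WT LMPP (adjusted p = 0.00343). LSK libraries had 8.30 and 7.19 M tags and WT LMPP 2.0 and 3.65 M, and the part of this gap in the difference was not tested.

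In the d56kb mice, GMP had 110 sites higher and 21 lower than LMPP (all sites tested, 15.3% higher and 2.74% lower), with 122 and 21 without scaling (all sites, 16.1% and 3.33%) and 106 and 19 under both. Over all 1026 sites without a filter 102 (9.94%) were higher, against 8.83% of all sites, and 16 (1.56%) lower, against 1.41%, so the counts lay near the background. Of all sites in a set, 10.7% of the shared, CEBPA-bound sites and 3.85% of shared sites without CEBPA were called higher, while the share was 11.5% of cDC1 IRF8 sites with CEBPA, 16.9% of Mo IRF8 sites with CEBPA and 18.7% of CEBPA sites without IRF8. The site inside Trps1, a GATA-type repressor gene, had 1944 and 2000 bases in GMP, 1975 and 2000 in MDP, 766 and 501 in cDC1 and 0 in the remaining libraries (adjusted p = 6.96e-06, limma). That in A1cf, an RNA-editing cofactor gene, had 1822 and 1959 in GMP, 2000 and 2000 in MDP and 0 in both d56kb LMPP libraries (adjusted p = 0.00596, limma). Among the falling sites, the one 2.38 kb upstream of Zbtb39, a zinc finger gene, had 1711 and 1240 in d56kb LMPP and 0 in every GMP and MDP library (adjusted p = 0.000719, limma). GMP and MDP thus shared the state of these 3 sites.

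From GMP to MDP, both d56kb, 111 sites were higher in MDP and 9 lower (all sites tested, 5.62% higher and 3.12% lower), with 102 and 12 without scaling (all sites, 5.25% and 3.42%) and 98 and 8 under both. Without a filter 100 of 1026 (9.75%) were higher, against 3.05% of all sites, and 8 (0.780%) lower, against 1.62%. Of all sites in a set, 10.8% of the shared, CEBPA-bound sites, 6.80% of shared sites without CEBPA, 5.41% of cDC1 IRF8 sites with CEBPA and 11.8% of Mo IRF8 sites with CEBPA were called higher. A fit of these 2 groups alone, with 2 residual degrees of freedom, called 0 sites, while 190 had an unadjusted p under 0.05. Sites with the largest rise included Irf5 and Nlrp3, described above and tied at the highest value the level allows. Tyk2, a kinase of interferon and interleukin-12 signalling, was also among them, with 1732 and 1883 bases in MDP and 0 in both GMP libraries (adjusted p = 0.00449, limma). Among the falling sites was that of Ywhaz, a 14-3-3 gene of the housekeeping list, with 1564 and 1794 bases in GMP and 0 in MDP and cDC1 (adjusted p = 0.00314, limma). By presence of the mark in both libraries, 186 sites (18.1%) were acetylated in MDP and not GMP, and 40 (3.90%) in GMP and not MDP. These shares were 11.7% and 3.81% at shared sites without CEBPA, and 9.86% and 6.14% at cDC1 IRF8 sites with CEBPA.

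**Figure D4:**
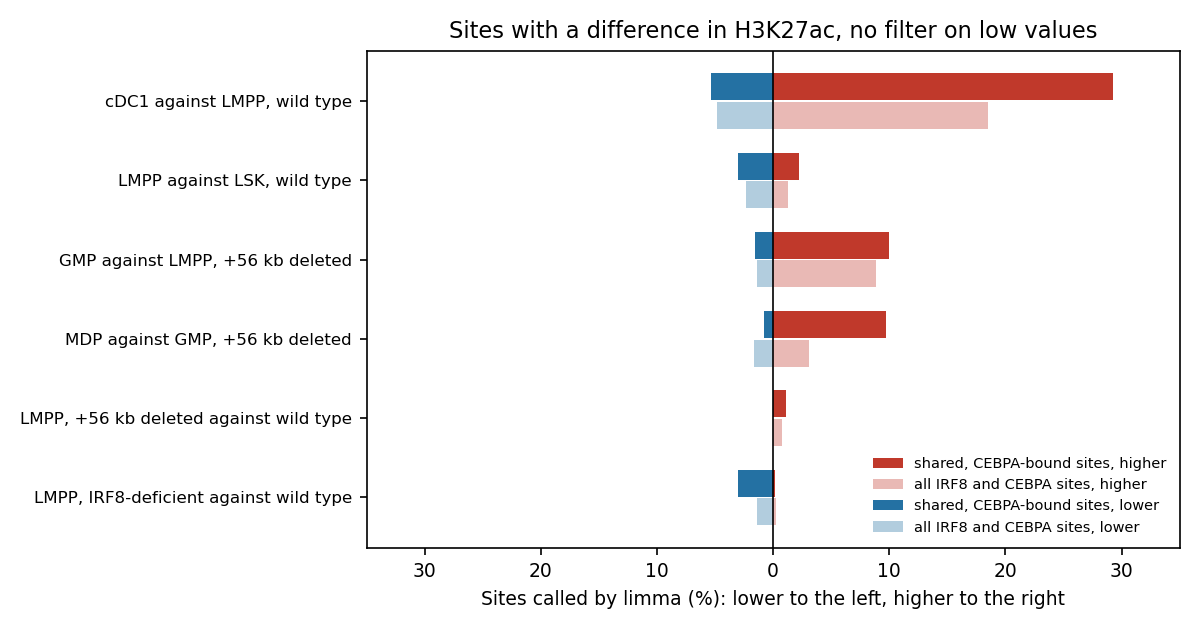
Percentage of sites called by limma without a filter (x axis, higher to the right, lower to the left) in 6 comparisons (y axis) for the 1026 shared, CEBPA-bound sites (dark bars) and all 32474 IRF8 and CEBPA sites (pale bars). The dark bar to the right exceeds the pale one in cDC1 against LMPP (29.2% against 18.5%) and MDP against GMP (9.75% against 3.05%) and lies near it in GMP against LMPP (9.94% against 8.83%). The pale bars include 12444 sites of CEBPA alone, of which 7.02% were called higher in cDC1 against LMPP with the filter.

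Few of the sites differed between d56kb and WT LMPP, and their share lay near that of all sites. In d56kb against WT LMPP 16 sites (1.93% of the 828 tested) were higher and 0 lower (all sites tested, 1.76% higher and 0.123% lower), and 98 had an unadjusted p under 0.05. Without scaling limma called 28 higher and 0 lower (all sites, 3.04% and 0.0741%), without a filter 11 (1.07%) higher and 0 lower of 1026 (all sites, 0.801% and 0.0493%), and in a fit of the 2 groups alone 0, with 107 at an unadjusted p under 0.05. The Bmp2k site had 1916 and 2000 bases in d56kb LMPP and 0 in both WT LMPP libraries (limma adjusted p = 0.000741), and that inside Cfap54, a cilia gene, 1603 and 1670 against 175 and 0 (adjusted p = 0.00785, limma, and 0.215 with the window of 2.5 kb to each side). These rises coincide with more covered sequence in d56kb than in WT LMPP libraries, and the part of this was not tested.

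In IRF8KO LMPP 35 sites were lower and 2 higher than in WT LMPP (all sites tested, 2.54% lower and 0.39% higher), and without scaling 40 lower and 1 higher (all sites, 3.12% and 0.193%), of which 29 lower and 1 higher were called under both. Without a filter 31 of 1026 (3.02%) were lower, against 1.39% of all sites, and 2 (0.195%) higher, against 0.219%. Of all sites in a set, 3.41% of the shared, CEBPA-bound sites, 2.13% of shared sites without CEBPA and 2.19% of cDC1 IRF8 sites with CEBPA were called lower. Of the 35 sites 29 had no region in either IRF8KO library, 35 had one in both d56kb LMPP libraries and 5 lay by a gene start. The start of Casp1, the inflammasome protease, had 1070 and 1102 bases in WT LMPP, 1395 and 1461 in d56kb LMPP and 0 in both IRF8KO libraries, and was covered by 1131 or more in each LSK, cDC1, GMP and MDP library. It was thus empty in the IRF8KO libraries alone (limma adjusted p = 0.000318). Trim56, a ubiquitin ligase of antiviral sensing, had 839 and 1431 bases in WT LMPP, 1677 and 1359 in d56kb LMPP and 0 in IRF8KO (adjusted p = 0.00139, limma). The Gbp7 promoter printed above, of an interferon-induced GTPase, had 786 and 1499 in WT LMPP, 1199 and 1254 in d56kb LMPP, 0 in IRF8KO and also 0 in both cDC1 libraries (adjusted p = 0.00291 for IRF8KO and 0.000146 for cDC1 against WT LMPP, limma). The site 3.60 kb upstream of Cd180, a Toll-like receptor homologue, had 1587 and 690 in WT LMPP and 0 in IRF8KO (adjusted p = 0.00805, limma). That inside Ncf4, the p40phox subunit of the phagocyte oxidase, had 501 and 839 in WT LMPP, 1588 and 1641 in d56kb LMPP and 0 in IRF8KO (adjusted p = 0.00222, limma, and 0.188 with the window of 2.5 kb to each side). Of the 2 higher sites, that in Plxnc1, a semaphorin receptor gene, had 501 bases in each IRF8KO library and 0 in WT LMPP (adjusted p = 0.00263, limma). These were regions of the narrowest width, so the equal values show little of the spread between the libraries. At 37.6% and 36% of the sites acetylated in the first and second IRF8KO library, the region had the narrowest width. A fit of these 2 groups alone called 0 sites, while 65 had an unadjusted p under 0.05, and without either IRF8KO library 64 or 63 were called. The IRF8KO libraries were the shallowest, and the part of depth in these differences was not tested. H3K27ac does not show whether the Irf8 gene itself is disrupted, so the IRF8KO label was not checked.

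The Irf8 locus held none of the 1026 sites. The element 41.0 kb downstream of the Irf8 start had IRF8 in both cDC1 libraries and CEBPA in both Mo libraries but no IRF8 in Mo. The element at 56.6 kb, which the d56kb mice lack, had CEBPA in both Mo libraries and IRF8 in the second cDC1 and the first Mo library only, and so lay just outside the rule.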

How the data were processed

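Peaks of each library were deposited as lists of genome positions in bases, a unit of no measured strength; per the submitters' processing notes they were made with Bowtie 1.1.2 and HOMER 4.9 on mm10 (GRCm38). The deposited score was not used. Total tags came from the file headers. IRF8 and CEBPA peaks of a group's 2 libraries were merged and kept where both had a call, on chromosomes 1 to 19, X and Y. Genes, starts and promoters were from RefSeq (GRCm38.p6). H3K27ac bases were fitted in R 4.3.3 with limma 3.58.1 (trend and robust) over 14 libraries, with 7 residual degrees of freedom, and the script was tested on simulated data. A sign-flip test of the acetylated shares over libraries was run with SciPy 1.17.1 and its p is not reported, because the libraries score the same sites. Named were the 10 genes with the most sites, listed genes with a site, up to 5 sites in each direction of each comparison, sites with a cDC1 CEBPA peak, and Irf8; of these, examples are given. The members, lists and rules were chosen with earlier results of these data known. The labels do not say that the 2 libraries of a group came from separate animals, so p-values measure the spread between these libraries, which may be technical. The 7 input DNA samples were not used. Same-numbered libraries of different groups did not deviate together (correlations of -0.06 to 0.054 over 21 pairs of groups), so the numbers were not taken as pairs. Alternatives were another pseudocount, no scaling, no filter, a wider window, a fit of 2 groups alone, a replicate block and leaving out each library. Some named results are not reported here.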

Additional observations from a re-analysis of the deposited data

How the results depend on the processing

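In LMPP against LSK the 73 sites called became 110 without scaling, 39 with the window of 2.5 kb to each side, 155 with 2 groups fitted alone and 21 to 53 on leaving out a library. Fitting 2 groups alone gave 0 calls in MDP against GMP, d56kb against WT LMPP and IRF8KO against WT LMPP, and d56kb against WT LMPP without scaling gave 28. Leaving out a library gave 38 to 64 calls in IRF8KO against WT LMPP. In the order of the report, calls with a replicate block were 370, 63, 124, 117, 13 and 33. They were 372, 73, 131, 120, 16 and 37 without it. With 0 of 21 group pairs correlated over 0.1, no shared deviation of same-numbered libraries was seen. Whether such libraries shared a preparation was not tested. The number of sites was 979 with an overlap of 100 bases, 939 with an overlap of 50% of the shorter peak, and 1079 to 1270 without 1 factor library. Acetylated shares, for a region overlapping the peak itself, fell to 35.9% in LSK, 14.9% in WT LMPP, 24.3% in d56kb LMPP, 37.1% in GMP, 48.7% in MDP, 49.2% in cDC1 and 8.48% in IRF8KO LMPP, so that MDP no longer stood above cDC1. Within 2.5 kb they were 44.7% in LSK, 24.6% in WT LMPP, 35.1% in d56kb LMPP, 47.0% in GMP and 16.5% in IRF8KO LMPP. With that window MDP (61.5%) stood above cDC1 (55.8%). From 1 library in place of both they were 43.6 to 48.0% in LSK, 25.9 to 27.6% in WT LMPP, 54.3 to 68.2% in cDC1, 36.4 to 37.1% in d56kb LMPP, 49.6 to 50% in GMP, 61.2 to 71.7% in MDP and 18.1 to 19.5% in IRF8KO LMPP. The share by a gene start was 10.2% within 2.5 kb and 7.31% with starts of all annotated genes. The difference from shared sites without CEBPA stayed between 9.51 and 11.5 points in every alternative run. The cause of these shifts was not tested, beyond the smaller number of libraries or sites in each. Depth limits what is called absent: a site without a region in a shallow library may carry the mark below the calling threshold.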
